A study of Mus musculus with 14 samples.

Results

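The products of goblet cells, the mucus-making cells of the intestinal epithelium, were followed here through 10 genes: Tff3, Clca1, Fcgbp, Agr2, Muc13, Muc3, Galnt12, St6galnac1, Creb3l1 and Retnlb. They were found as the probe sets annotated to exactly 1 of these symbols. This gave 12 of the 20393 probe sets with 1 gene symbol. They cover 9 of the 10 genes, among 12394 genes in all, and Galnt12 is not analysed here. Agr2, Clca1 and Muc13 had 2 probe sets each, and the probe set with the higher mean signal stands for the gene unless another is named.

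RNA was measured on single-colour arrays in 4 groups of samples from mouse intestine. Adult small intestinal crypts (3 arrays, K12, K21 and K41) and villi (3 arrays, V12, V41 and V275) came from C57BL/6 mice aged 12 weeks, each sample from 1 mouse. Endoderm, from which the epithelium forms, and the surrounding mesenchyme were dissected from collagenase-digested intestine at embryonic day 12 (E12), with 4 arrays each. Each E12 array holds a pool, of 35 fetuses for replicate 1 and of 10 to 12 fetuses for replicates 2, 3 and 4. The labels give no mutation, transgene or treatment for any group, and no strain for the E12 pools. Values are log2 signals in 2 separately normalized tables, an 8-array table with the adult arrays and E12 replicate 1 of each layer, and a 6-array table with the other E12 pools. The 30th percentile of all values, taken here as the level near background, was 5.78 in the 8-array table and 4.74 in the 6-array table, and no level is compared between the tables. Among the adult arrays, all 5 Paneth cell markers tested were higher in crypts and all 6 enterocyte markers tested were lower there. The summed signal of the Paneth markers was 49067 to 54042 in crypts and 2197 to 12012 in villi, while that of the enterocyte markers was 2124 to 4815 in crypts and 27344 to 39937 in villi. In the E12 layers all 5 epithelium markers were higher in endoderm (Krt8, a keratin gene, by 4.95) and all 5 mesenchyme markers lower (Col3a1, a collagen gene, at a log2 difference of -5.73). In the 6-array table the mesenchyme markers summed to 1558 to 2213 in endoderm and 20119 to 22034 in mesenchyme, with Twist1 under the 30th percentile in endoderm. All 5 T cell markers were lower in crypts (sums of 614 to 707 in crypts and 3516 to 8216 in villi), and 4 of 6 stem and dividing cell markers were higher there (3547 to 4078 in crypts and 824 to 1160 in villi). Lct and Cd3g lay under the 30th percentile in all crypts, so they were tested through their villus signals. Twist1 was likewise tested through mesenchyme. The places of these genes in the counts support nothing. The part of these other cells in the results below was not tested, beyond the values given beside them.

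Goblet cells arise from dividing precursors in the crypt and move up the villus while they fill with mucin granules. The secreted gel is built of a large mucin and is accompanied by proteins that crosslink, process or stabilise it: the trefoil peptide Tff3, the metalloprotease-like Clca1 and the Fc binding protein Fcgbp. Agr2 is a protein disulfide isomerase of the endoplasmic reticulum needed for mucin folding, Creb3l1 a membrane-bound transcription factor of the secretory pathway, and Retnlb (RELM-beta) a secreted antibacterial protein. Muc13 and Muc3 are transmembrane mucins, which enterocytes also carry on their brush border. Galnt12 starts and St6galnac1 caps the O-linked sugar chains of mucins.

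Promoters are shown for 3 genes that differed between crypt and villus, 2 of them higher in villi (Fcgbp and Muc3) and 1 higher in crypts (Agr2). The RefSeq promoter table (GRCm38.p6) held 4 of the 10 genes, Muc13 with 2 start sites. Printed 5′ to 3′ are the 250 bases before the annotated start, with capitals marking matches on either strand to CAGNTG (the E-box bound by basic helix-loop-helix factors), GATAA (the GATA factor motif) or CACCC (a motif of Kruppel-like factors). The Fcgbp window is chr7:28070986-28071235 on the plus strand, the Muc3 window is chr5:137166047-137166296 on the minus strand, and the Agr2 window is chr12:35992675-35992924 on the plus strand.
Fcgbp: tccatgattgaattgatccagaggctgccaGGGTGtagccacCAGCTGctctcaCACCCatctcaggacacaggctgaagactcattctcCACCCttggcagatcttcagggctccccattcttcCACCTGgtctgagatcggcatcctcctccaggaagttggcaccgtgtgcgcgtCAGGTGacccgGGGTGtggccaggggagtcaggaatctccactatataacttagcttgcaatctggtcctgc
Muc3: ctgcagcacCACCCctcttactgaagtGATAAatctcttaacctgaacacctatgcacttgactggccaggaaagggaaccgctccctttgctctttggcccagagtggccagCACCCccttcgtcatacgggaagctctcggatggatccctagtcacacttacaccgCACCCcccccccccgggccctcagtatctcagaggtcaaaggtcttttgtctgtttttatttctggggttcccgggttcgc
Agr2: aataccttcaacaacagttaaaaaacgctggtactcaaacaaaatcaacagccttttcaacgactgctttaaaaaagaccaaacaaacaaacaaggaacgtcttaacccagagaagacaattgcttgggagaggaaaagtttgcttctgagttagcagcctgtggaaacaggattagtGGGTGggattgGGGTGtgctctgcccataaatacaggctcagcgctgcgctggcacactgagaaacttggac
The Fcgbp window held 3 matches to CAGNTG, 0 to GATAA and 4 to CACCC. The Muc3 window held 0, 1 and 3 matches to the same motifs, and the Agr2 window 0, 0 and 2. Both Muc13 windows held 1 match to CAGNTG and 0 to the other motifs. Among all 32851 promoter windows of this length, 44.8% held CAGNTG, 22.6% GATAA and 52% CACCC, so these are common letters and a match is a description only.

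Crypts were compared with villi to see where along the adult epithelium each goblet cell gene is highest, and the genes split into 2 sets. Clca1, Fcgbp, Tff3, Muc13 and Muc3 were lower in crypts than in villi, by 1.40-fold (Tff3) to 6.03-fold (Muc3). Agr2 and Creb3l1, which act in the secretory pathway, were 2.08-fold and 2.07-fold higher in crypts. Retnlb did not pass the test, and St6galnac1 lay near background on all arrays. With limma's test at an adjusted p under 0.05, 5 of the 8 members tested were lower and 2 higher in crypts, beside 16.9% lower and 15.0% higher among all 9962 genes tested (32.0% in either direction). The crypt and villus arrays of all 8 did not overlap, as for 47.8% of all genes. These members were chosen with earlier results of these data known, so the counts are a description.

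The secreted mucus proteins had their highest signals in villi. Clca1 stood at 9.90, 9.41 and 10.24 in crypts K12, K21 and K41, against 12.25, 12.26 and 12.22 in villi V12, V41 and V275. The crypt arrays all lay below the villus arrays, which were within 0.04 of each other. The crypt minus villus difference was -2.39 ± 0.21 (SE; limma adjusted p = 0.000355), and the dimmer Clca1 probe set, near background in crypts, gave -1.04. Fcgbp stood at 12.14, 11.78 and 12.26 in crypts and at 13.81, 13.30 and 13.49 in villi, again with no overlap. Its difference was -1.47 ± 0.19 (limma adjusted p = 0.00142). Bulk RNA cannot tell a lower number of goblet cells from less RNA per goblet cell, here and in every comparison that follows.

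Tff3 was the brightest member in both compartments and the one that differed least among those that passed. Its signals were 13.35, 13.15 and 13.33 in crypts and 13.96, 13.67 and 13.67 in villi, while the brightest probe set of each of these arrays lay between 14.1 and 14.3. The difference of -0.49 ± 0.15 passed narrowly (limma adjusted p = 0.0394). Once the arrays were quantile normalized it was -0.33 (adjusted p = 0.108), and a trended and robust prior left it at -0.49 (adjusted p = 0.17). Leaving out K12, K21, K41, V12 or V275 gave an adjusted p of 0.0728, 0.145, 0.0658, 0.113 or 0.0701 in turn, and the call was kept without V41.

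The transmembrane mucins were lower in crypts as well. Muc3 stood at 9.38, 10.72 and 11.28 in crypts K12, K21 and K41, against 12.92, 13.68 and 12.55 in villi V12, V41 and V275, with no overlap. Its difference was -2.59 ± 0.49 (limma adjusted p = 0.00642), and its crypt SD of 0.97 was the second largest of the members after Retnlb. The enterocyte markers summed to 2124 in K12, 3433 in K21 and 4815 in K41, in the order of Muc3, but to 27344 in V12, 32778 in V41 and 39937 in V275, where Muc3 was lowest in V275. Muc13 stood at 11.77, 11.96 and 12.26 in the same crypts and at 12.80, 13.53 and 13.47 in the same villi, a difference of -1.27 ± 0.23 (limma adjusted p = 0.00548). Its other probe set gave -1.49. Enterocyte markers moved with both mucins between crypts and villi, with Anpep, a brush border peptidase gene, at a difference of -3.27 and Vil1, a microvillus protein gene, at -1.91. Their part in the mucin differences was not tested, nor was whether the Muc3 probes also bind RNA of the neighbouring gene Muc3a.

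Agr2 and Creb3l1 ran the other way. Agr2 stood at 11.32, 10.76 and 11.34 in crypts and at 10.63, 9.66 and 9.98 in villi. The nearest arrays, K21 and V12, were 10.76 and 10.63, so the groups were separate but close. The difference was 1.05 ± 0.28 (limma adjusted p = 0.023), and the dim second probe set, which was not tested, gave 1.39. Without K12, K41 or V275 the adjusted p of Agr2 was 0.0892, 0.0771 or 0.0646. Creb3l1 stood at 9.71, 9.23 and 9.07 in crypts and at 8.63, 8.10 and 8.14 in villi. Its difference was 1.05 ± 0.22 (limma adjusted p = 0.0102), and it passed under all 15 alternatives tried, with values from 0.86 to 1.23. Paneth cell markers were higher in the same crypts, with Itln1, a lectin gene, at 13.88 in crypts and 9.93 in villi. Among the villi V12 stood apart, with Paneth markers summing to 12012, beside 2197 in V41 and 4546 in V275, and it had the highest villus signal of Agr2 and of Creb3l1. Tff3 and Fcgbp, which were lower in crypts, were also highest in V12 among villi (13.96 and 13.81). Clca1, Muc13, Muc3 and Retnlb were highest in V41. The other goblet products summed to 26224 in V12, beside 21577 in V41 and 21276 in V275. Agr2 and Creb3l1 were called without V12 as well. The part of Paneth cells in the differences was not tested.

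Retnlb differed from crypt to crypt more than any other member. It stood at 6.56, 7.18 and 8.81 in crypts K12, K21 and K41 and at 6.05, 6.39 and 6.10 in villi V12, V41 and V275. Every crypt lay above every villus, but K41 was far above the other crypts. The difference of 1.34 ± 0.51 did not pass (limma adjusted p = 0.0827, 95% interval 0.16 to 2.51). Without K41 it was 0.69 (adjusted p = 0.0717), and without K12 it was 1.81 and passed (adjusted p = 0.0411). B and plasma cell markers were also highest in K41, where they summed to 867, beside 303 in K12, 615 in K21 and 358 to 449 in villi. Among crypts, the sums of enterocyte (4815), epithelium (20568) and stem and dividing cell markers (4078) were highest in K41 too. Those of the other marker lists were highest in K12 or K21. The part of any of these cells in the Retnlb values was not tested. St6galnac1 ran from 3.67 to 3.98 in crypts and from 3.57 to 3.89 in villi, under the 30th percentile on all 6 arrays, and was not tested.

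**Figure D1:**
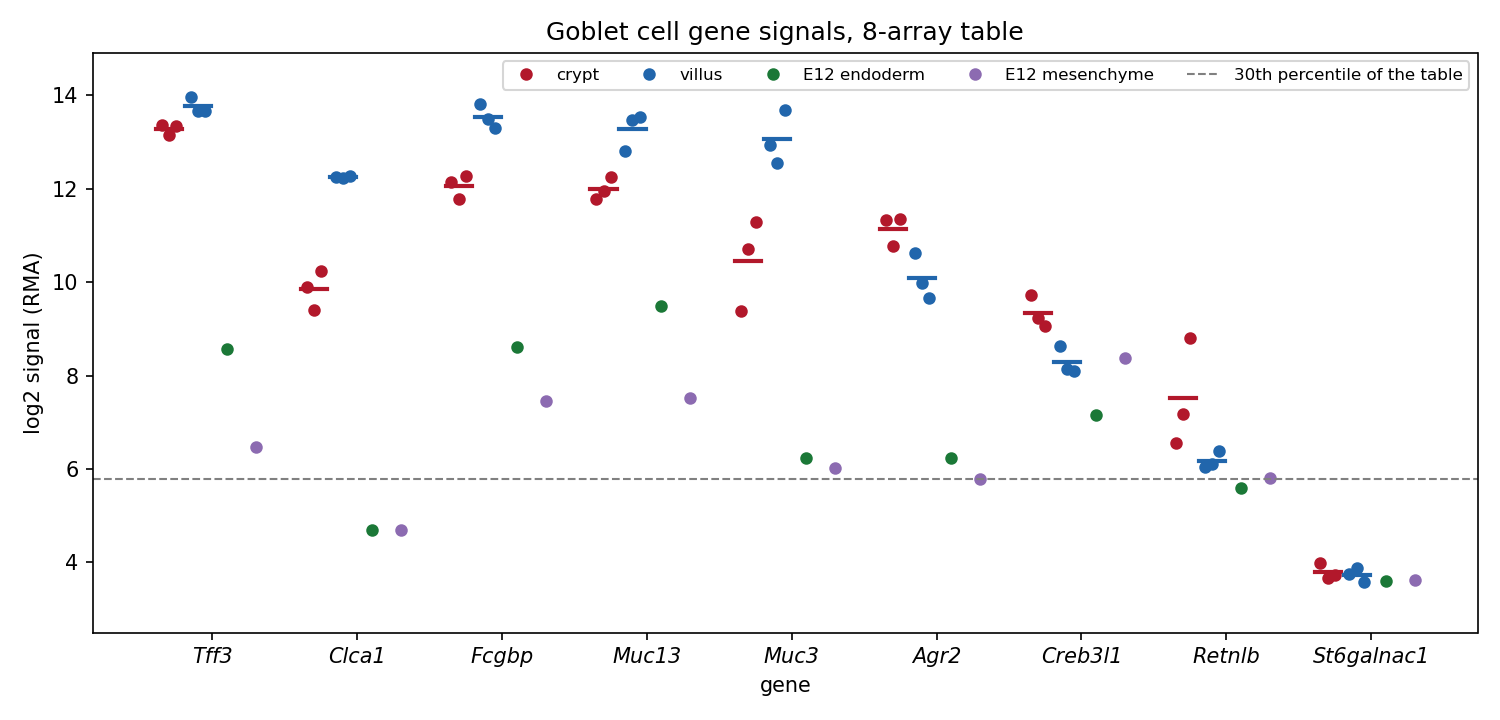
Log2 signals (vertical axis) of 9 goblet cell genes in the 8-array table, with a point for each array, bars at the mean of the 3 crypt and 3 villus arrays, and a dashed line at the 30th percentile of 5.78. Tff3, Clca1, Fcgbp, Muc13 and Muc3 are lower in crypts than in villi, Agr2 and Creb3l1 are higher there, Retnlb lies higher there without passing the test, and the adult arrays of all but St6galnac1 lie above the lone E12 endoderm array.

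Other genes of the secretory cell showed both patterns. Of 23 other goblet cell products tested, 6 were higher and 2 lower in crypts, with a median difference of 0.03 (0.00 over all genes). The share over all genes, 15.0% higher and 16.9% lower, stands beside this list and the 3 that follow. Ccl9, a chemokine gene, and Spink4, a protease inhibitor gene of goblet cells, were higher in crypts by 3.60 and 1.81. Zg16, a lectin-like mucus protein, and Capn9, a calpain of the digestive tract, differed by -1.10 and -1.01. Zg16 was at -1.92 when probe sets marked as possibly shared between transcripts were left out. Of 15 regulators of the secretory lineage and of mucus secretion, 9 were higher and 2 lower in crypts, with a median of 0.86. Ern2, the endoplasmic reticulum stress sensor IRE1-beta, was higher by 2.40 and Creb3l4, a relative of Creb3l1, by 2.05. Creb3l4 lay under the 30th percentile in villi (4.61), so its difference has no exact size. It was tested through its crypt signals, and its place among the 9 supports nothing. Klf4, a transcription factor gene of goblet cell differentiation that other villus epithelium also expresses, had a difference of -2.80, and Creb3l2, another relative of Creb3l1, of -1.42.

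The machinery for folding and export of secreted proteins was mostly higher in crypts or not called, while the O-glycosylation enzymes went both ways. Of 35 genes of endoplasmic reticulum folding and export, 19 were higher and 1 lower in crypts, with a median of 0.73. The signal peptidase subunit gene Spcs3 (1.80) and the disulfide isomerase gene Pdia6 (1.67, or 0.77 as a median over probe sets) were among them, and Sec24d, a coat protein gene of export vesicles, was the gene that was lower (-0.77). Sec24d narrowly passed, at a limma adjusted p of 0.048, and did not once the arrays were quantile normalized (0.114), nor without K12, K21, K41, V41 or V275 (0.148, 0.117, 0.095, 0.106 and 0.136). Of 26 O-glycosylation genes, 7 were higher and 7 lower, with a median of -0.01. C1galt1c1, the chaperone of core 1 synthase, was higher in crypts by 1.53 (0.70 as a median over probe sets) and the sialyltransferase gene St6galnac2 by 1.46. Taken as a median over probe sets, St6galnac2 was at 0.75 and did not pass (adjusted p = 0.054). It did not pass without K12, K21, V41 or V275 either (adjusted p = 0.133, 0.109, 0.0541 and 0.081). St3gal4, another sialyltransferase gene, had a difference of -2.17, and B3gnt3, which extends core 1 chains, of -1.11. B3gnt3 lost its call without K12 (adjusted p = 0.0576) and without K21 (0.0602). Paneth cells also secrete protein, and their markers were 5 of 5 higher in crypts. Their part in these counts was not tested.

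**Figure D2:**
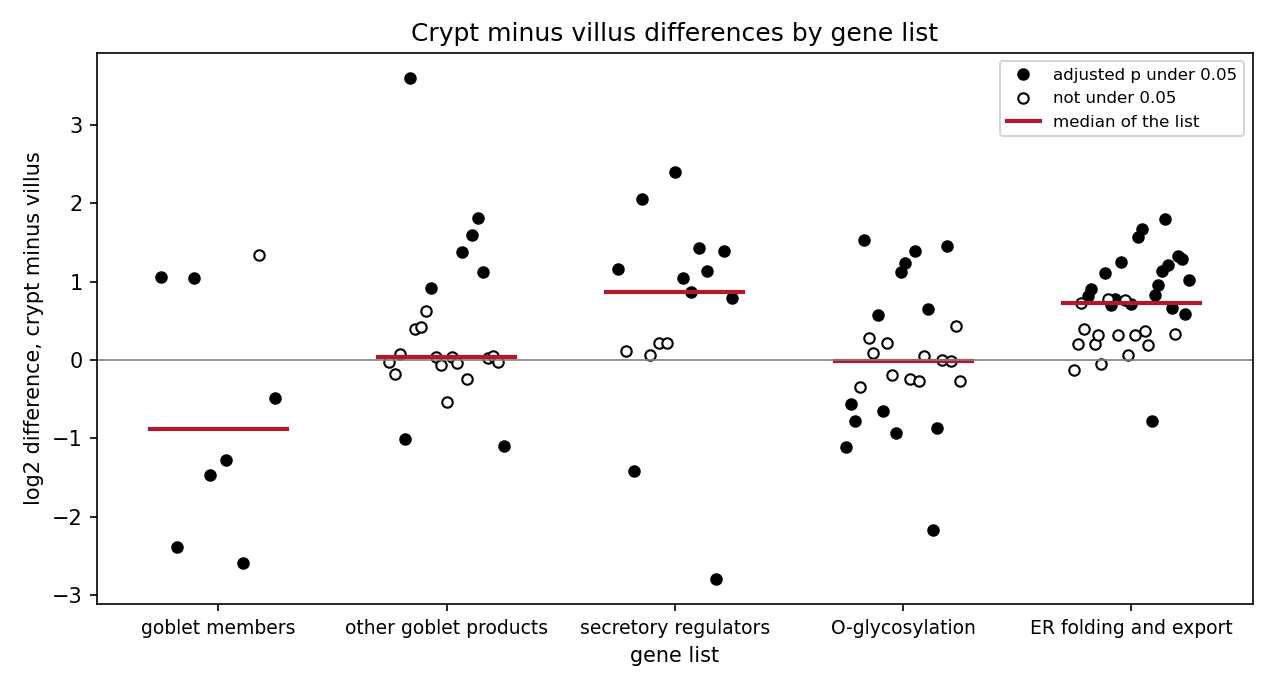
Crypt minus villus log2 differences (vertical axis) for each tested gene of 5 lists, filled where the limma adjusted p was under 0.05, with a bar at each list's median. The medians are -0.88 for the goblet members, 0.03 for other goblet products, 0.86 for secretory regulators, -0.01 for O-glycosylation genes and 0.73 for folding and export genes.

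Adult crypts and villi were then compared with E12 endoderm, the tissue the epithelium comes from, and the goblet cell genes were higher in the adult. In the 8-array table E12 endoderm has 1 array, which was assumed to vary like the others, and both comparisons share it. Against E12 endoderm, 7 of 8 members tested were higher in crypts. Among all 10082 genes tested, 8.20% were higher and 15.1% lower (23.3% in either direction). In villi 7 of 8 members were higher too, beside 17.0% higher and 22.1% lower among all genes (39.1% in either direction). The crypt arrays lay apart from the endoderm array for 80.7% of all genes and the villus arrays for 84.8%, so that all 8 members did so is not particular to them. Clca1 and Retnlb passed the filter on dim genes through the adult arrays, with E12 endoderm under it. Retnlb was just above it in E12 mesenchyme (5.80). The places of both genes in these counts support nothing. Among all genes, 827 were higher and 1521 lower in crypts. Quantile normalized arrays gave 1014 higher and 1172 lower.

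Among the secreted proteins, Clca1 was 9.85 ± 0.42 in crypts and 12.24 ± 0.02 in villi (SD, n = 3 each), against 4.70 in E12 endoderm. Endoderm lay under the 30th percentile there, so the differences, 5.16 ± 0.30 for crypts and 7.55 ± 0.30 for villi (SE), have no exact size. As a median over both probe sets they were 3.21 and 4.93. Tff3 was already well above background in E12 endoderm at 8.56, against 13.28 ± 0.11 in crypts and 13.77 ± 0.17 in villi. Its difference was 4.71 ± 0.21 in crypts (26.3-fold) and 5.20 ± 0.21 in villi (36.8-fold). Fcgbp stood at 12.06 ± 0.25 in crypts and 13.53 ± 0.26 in villi, against 8.61 in E12 endoderm, and was 10.9-fold and 30.3-fold higher in the adult tissues.

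The mucins and the secretory pathway genes differed from each other in how much of the adult level the endoderm had. Muc13 stood at 12.00 ± 0.24 in crypts and 13.27 ± 0.40 in villi, against 9.49 in E12 endoderm, the highest endoderm signal among the members. Muc3 stood at 10.46 ± 0.97 in crypts and 13.05 ± 0.58 in villi, against 6.23 in E12 endoderm, differences of 4.23 ± 0.69 (limma adjusted p = 0.00497) and 6.82 ± 0.69 (limma adjusted p = 0.000269). Agr2 was 11.14 ± 0.33 in crypts and 10.09 ± 0.49 in villi, against 6.23 in E12 endoderm, which is 30.1-fold and 14.5-fold higher in the adult tissues. The endoderm signals of Muc3 and Agr2 were not far above the 30th percentile of 5.78, so the sizes of their differences are not exact. Creb3l1 had the smallest differences that passed, 2.18 ± 0.31 in crypts and 1.13 ± 0.31 in villi (limma adjusted p = 0.00314 and 0.0241), from 7.16 in E12 endoderm.

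Retnlb did not pass against E12 endoderm, where it stood at 5.60. The difference was 1.91 ± 0.72 in crypts (limma adjusted p = 0.0906, 95% interval 0.25 to 3.58) and 0.58 ± 0.72 in villi (0.54, interval -1.09 to 2.24). The crypt difference passed without K12 (2.39, adjusted p = 0.0489) and without K41 (1.27, adjusted p = 0.0334). St6galnac1 was at 3.60 in E12 endoderm and was not tested.

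**Figure D3:**
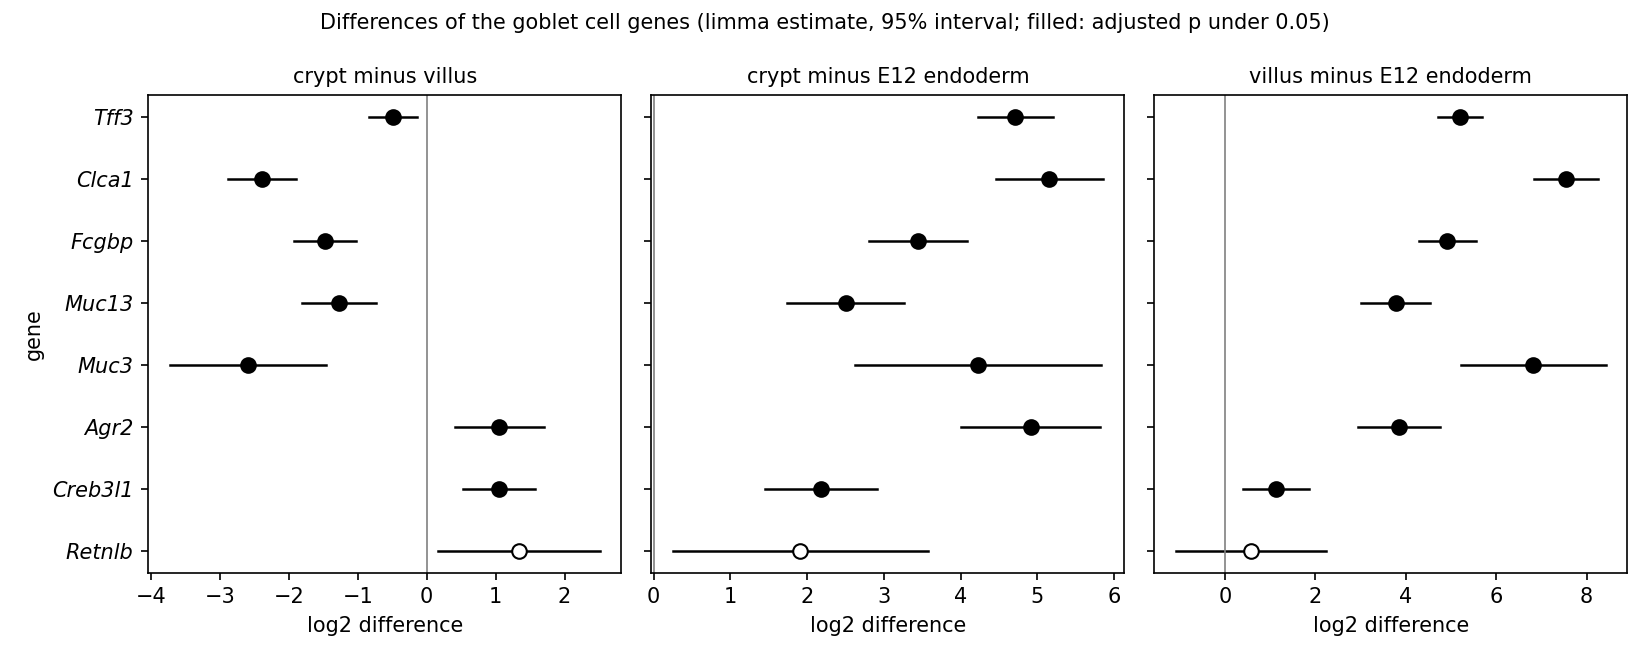
Limma log2 differences (horizontal axes, with a separate scale in each panel) of the 8 tested members with 95% intervals, filled where the adjusted p was under 0.05. Between crypts and villi the members lie on both sides of 0, from -2.59 for Muc3 to 1.34 for Retnlb, and against E12 endoderm all 8 estimates are above 0, from 0.58 for Retnlb to 7.55 for Clca1 in villi.

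Many related goblet cell genes were higher in the adult too. The shares over all genes stand beside this list and those that follow. They were 8.20% higher and 15.1% lower in crypts, and 17.0% higher and 22.1% lower in villi. Of 23 other goblet products tested, 13 were higher in crypts and 0 lower than in E12 endoderm (median 1.03), among them Spink4 (8.23) and Guca2a, the guanylin gene (6.13). Spink4 was 1 of 8 of the 24 measured genes of this list under the 30th percentile in E12 endoderm (5.37), so its difference has no exact size there or in villi. These 8 genes were under it in E12 mesenchyme too, so those tested passed the filter on dim genes only through adult arrays. Their places in the counts for crypts and villi support nothing. In villi 13 were higher and 1 lower (median 1.06), with Spink4 at 6.42, Zg16 at 6.28 and the transmembrane mucin gene Muc1 at -0.72. Muc1 lost its call without V12 (adjusted p = 0.053) and without V275 (0.064). Of 15 secretory regulators, 11 were higher and 1 lower in crypts, and 6 higher and 2 lower in villi. Atoh1, the transcription factor gene that starts the secretory lineage, was higher by 3.31 in crypts and 2.15 in villi, and Klf4 by 4.55 in villi. Ern2 was higher in crypts (9.44, against 5.01 in E12 endoderm, under the 30th percentile). Its place in these counts supports nothing. Foxa1, an endoderm transcription factor gene, had differences of -2.37 and -3.41, and Foxa2 one of -1.32 in villi.

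The glycosylation enzymes and the folding machinery were also set against E12 endoderm. Of 26 O-glycosylation genes, 9 were higher and 1 lower in crypts, and 10 higher and 1 lower in villi. St3gal4 (4.53 in crypts and 6.70 in villi) and the sugar chain starter gene Galnt6 (2.40 and 2.64, with endoderm at 5.76, just under the 30th percentile) were higher in both, and St6gal1, a sialyltransferase gene of N-linked chains, was at -1.28 in both. As a median over probe sets St6gal1 was at -0.47 in crypts and -0.53 in villi, and neither passed. Of 35 folding and export genes, 11 were higher and 1 lower in crypts than in E12 endoderm (median 0.53), and 8 were higher and 9 lower in villi (median -0.23). Kdelr3, a retrieval receptor of the endoplasmic reticulum, and Herpud1, a stress response gene, were higher in crypts by 2.84 and 2.40. In villi Sec24d (2.55) and the oxidase gene Ero1b (2.07) were higher, and Pdia6 (-2.47) and the signal recognition particle gene Srp9 (-1.34) lower. Ero1b lay under the 30th percentile in E12 endoderm (5.65), so its difference has no exact size. The places of Ero1b and Galnt6 in these counts support nothing. Taken as a median over probe sets, Ero1b was at 0.48 and did not pass, and Pdia6 was at -1.08 in villi. Pdia6 was at -0.79 in crypts, but at -0.45 (adjusted p = 0.262) on quantile normalized arrays, and did not pass without K21, K41 or V275 (0.0914, 0.0552 and 0.054). The medians over all genes were 0.05 for crypts and 0.13 for villi. Among all genes 8.20% were higher and 15.1% lower in crypts, and 17.0% higher and 22.1% lower in villi.

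The E12 layers were compared in the 6-array table to see which goblet cell genes the endoderm already held. Tff3, Muc13, Fcgbp and Agr2 were higher in endoderm than in mesenchyme, by 2.25-fold (Fcgbp) to 10.1-fold (Muc13), with no exact fold for Agr2, which was under the 30th percentile in mesenchyme. Creb3l1 was 4.98-fold lower in endoderm. That fold has no exact size either, with endoderm pools 3 and 4 near background at 4.62 and 4.74. Clca1, Muc3, Retnlb and St6galnac1 lay under the 30th percentile on all 6 arrays and were not tested. Of 5 members tested, 4 were higher and 1 lower, beside 27.7% higher and 25.4% lower among all 9442 genes (53.1% in either direction). Agr2 passed the filter on dim genes through endoderm alone, and Creb3l1 passed it through mesenchyme. Their places in that count support nothing.

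Muc13 stood at 9.16, 9.10 and 8.72 in endoderm pools 2, 3 and 4, against 5.64, 5.72 and 5.61 in mesenchyme pools 2, 3 and 4. The difference was 3.34 ± 0.13 (limma adjusted p = 1.54e-07), and the dimmer Muc13 probe set gave 1.13 (7.15e-05 over all probe sets). Tff3 stood at 8.44, 7.99 and 7.51 in endoderm and at 4.95, 4.93 and 5.68 in mesenchyme, where pools 2 and 3 were close to background. Its difference was 2.79 ± 0.27 (limma adjusted p = 4.44e-05). Fcgbp stood at 7.81, 7.78 and 7.25 in endoderm and at 6.49, 6.29 and 6.55 in mesenchyme, a difference of 1.17 ± 0.16 (limma adjusted p = 0.000373). All 3 genes kept their layers apart with no overlap, as did 62.0% of all genes.

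Agr2 was weaker and closer to background, at 5.89, 5.39 and 4.97 in endoderm and 4.59, 4.73 and 4.73 in mesenchyme. Its difference was 0.73 ± 0.21 (limma adjusted p = 0.0166), and without mesenchyme pool 2 the adjusted p was 0.062. Creb3l1 stood at 5.51, 4.62 and 4.74 in endoderm, of which pool 3 lay under the 30th percentile of its array, and at 7.20, 7.46 and 7.16 in mesenchyme. The difference was -2.32 ± 0.22 (limma adjusted p = 4.3e-05). A fit over all 8 E12 arrays with the table as a block kept all 5 calls.

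The pools of 35 fetuses on the other array platform gave a second measure of the same layers, with 1 array each and no test. There the endoderm minus mesenchyme difference was 2.09 for Tff3, 1.97 for Muc13, 1.15 for Fcgbp, 0.43 for Agr2 and -1.21 for Creb3l1. Each had the sign it has in the 6-array table. Clca1 was at 4.70 in both layers, and Muc3 was at 6.23 in endoderm and 6.01 in mesenchyme.

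**Figure D4:**
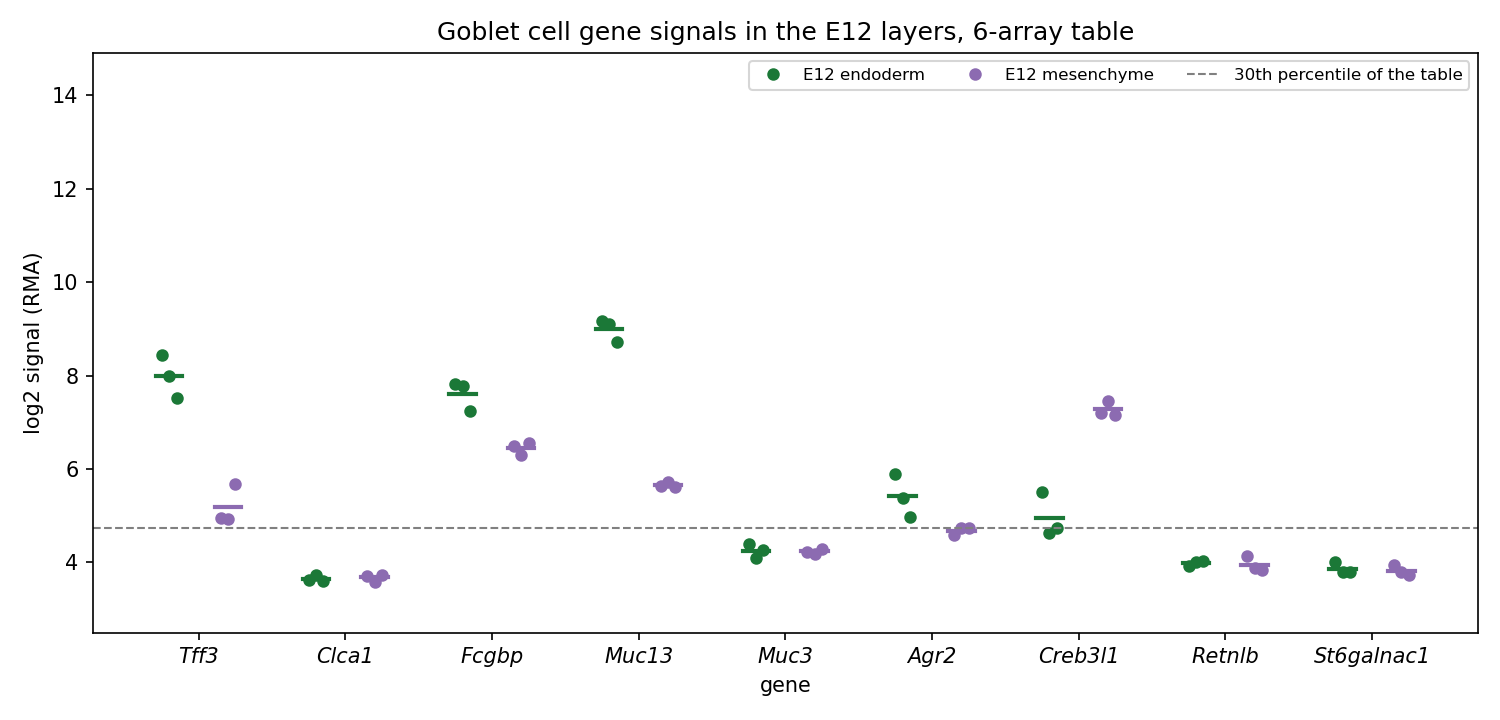
Log2 signals (vertical axis) of 9 goblet cell genes in the 3 endoderm and 3 mesenchyme pools of the 6-array table, with a point for each array, bars at the group means and a dashed line at the 30th percentile of 4.74. Tff3, Fcgbp, Muc13 and Agr2 are higher in endoderm, Creb3l1 is lower there, and Clca1, Muc3, Retnlb and St6galnac1 lie under the line in both layers.

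Of 11 other goblet products tested between the E12 layers, 2 were higher and 1 lower in endoderm: Muc1 by 0.74, the trefoil gene Tff1 by 0.37, and Sytl2, a granule docking gene, at -1.66. Among all genes 27.7% were higher and 25.4% lower, the share beside which this list and the next 3 stand. Among 12 secretory regulators, 4 were higher, led by Foxa1 (7.07) and Foxa3 (2.73), and 2 lower, Creb3l2 (-2.87) and the Notch ligand gene Dll1 (-1.87). Creb3l2 and Creb3l1 were thus both lower in endoderm. Of 22 O-glycosylation genes, 7 were higher and 9 lower, among them B4galnt2 (5.78), St6galnac2 (2.73), St3gal2 (-2.91) and St6galnac3 (-1.96). B4galnt2, St6galnac2 and Foxa3 in mesenchyme (4.38, 4.50 and 4.37), and St3gal2 and Sytl2 in endoderm (4.61 and 4.37), lay under the 30th percentile, so these differences have no exact size. These genes passed the filter on dim genes through the layer where they were higher, and their places in the counts support nothing. As a median over probe sets St6galnac2 was at 1.39 and St6galnac3 at -0.93. Of 35 folding and export genes, 3 were higher and 6 lower. Sec24d (-3.03) and Kdelr3 (-2.39) had the most negative differences, and Sec23b (0.31) and Ero1a (0.28) narrowly passed, at limma adjusted p of 0.0326 and 0.0428. Leaving out any mesenchyme pool, or endoderm pool 3 or 4, raised these to between 0.0501 and 0.146. The list medians ran from -0.07 to 0.16, beside 0.03 over all genes.

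Across the 8 arrays of the 8-array table, the order of levels was villus, crypt, E12 endoderm and E12 mesenchyme for Tff3, Fcgbp, Muc13 and Muc3, with Clca1 equal in the E12 layers to 2 decimals. For Agr2 it was crypt, villus, endoderm and mesenchyme, and for Creb3l1 it was crypt at 9.34, mesenchyme at 8.37, villus at 8.29 and endoderm at 7.16. The lone mesenchyme array of Creb3l1 lay within the villus range of 8.10 to 8.63. For Retnlb, E12 mesenchyme (5.80) and endoderm (5.60) lay below villi (6.18), and crypts (7.51) above villi, with values that did not overlap and a difference that did not pass.

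Profiles over these 8 arrays were also set against 10081 other genes by Pearson's r, as a description of arrays that share their groups. Agr2 was most like Spink4 (r = 0.992) and Fcgbp most like the adaptor gene Stap2 (0.996). Muc13 was most like H2-D1, a class I antigen presentation gene (0.999), and Muc3 most like the lectin gene Lgals3 (0.996). Clca1 was most like Atp9a (0.994), Tff3 most like Lppos (0.992), Creb3l1 most like Mdfi (0.969) and Retnlb most like Cmas, which activates sialic acid (0.943). Clca1 and Fcgbp were the most alike pair of members, at 0.988. Creb3l1 and Retnlb stood apart from the other members, with no r above 0.728 and 0.629, both to Agr2.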

How the data were processed

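RNA of 14 samples was measured on single-colour oligonucleotide arrays. The deposited values are log2 signals, made by the authors with RMA per the submitters' processing notes. RMA corrects background, normalizes arrays and summarises probes, and no version is given in the sources used here. The 6-array values are rounded in the file. Probe sets were named through the platform annotation. Genes were tested where at least 3 arrays exceeded the table's 30th percentile, with limma 3.58.1 (lmFit, eBayes; R 4.3.3), adjusted by Benjamini-Hochberg over all genes of a comparison, and called at an adjusted p under 0.05. Crypts and villi were fitted on the 6 adult arrays, adult tissues against E12 endoderm in 1 fit of 8 arrays, and the E12 layers on the 6-array table. The test was run on simulated data. The members, lists and tests were chosen with earlier results of these data known. Named genes of a list are the 2 largest called changes in each direction; each member was given the gene of highest correlation.

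Labels describe adult samples as single mice and E12 samples as pools, and p-values measure the spread between these samples. Against E12 endoderm that spread comes from the adult arrays alone, since each E12 layer has 1 array in that fit. The number of arrays limits the precision, and RMA compresses low signals. E12 titles share numbers 2, 3 and 4 between layers, and these pairs were treated as paired in an alternative. Deviations from the group means correlated at 0.21, 0.23 and 0.11 for them. Unmatched endoderm 3 and mesenchyme 4 were at 0.13, above the last pair, so these values do not settle the pairing. No array duplicated another. Alternatives changed the dim gene filter, the scaling, the probe set choice, the prior, the samples and the block.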

Additional observations from a re-analysis of the deposited data

How the results depend on the processing

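Of 29 member results, none changed sign under the 10 to 15 alternatives that gave each a value. Retnlb, and Agr2 between the E12 layers, had no value where they failed an alternative's filter. The 7 members called between crypts and villi became 5 to 7 when single replicates were left out, and the other counts of members called were 7 to 8 for crypts against E12 endoderm, 7 to 7 for villi against it and 4 to 5 between the E12 layers. Over all genes, leaving out single replicates gave 1851 to 3069 calls between crypts and villi, 1340 to 2983 for crypts against E12 endoderm, 3310 to 3898 for villi against it and 3941 to 5052 between the E12 layers. The lowest counts of the first 2 comparisons came without K21 (1851 against 3183, and 1340 against 2348). With a replicate block, K21 and V275 had no partner, so the crypt and villus difference rested on the pairs numbered 12 and 41 alone. That fit called 1260 genes between crypts and villi. In that block, Tff3, Agr2, Zg16, Capn9 and B3gnt3 had adjusted p of 0.253, 0.0739, 0.0687, 0.0513 and 0.0742. Deviations of same-numbered crypts and villi correlated at 0.16 and 0.07, and those of the unmatched K21 and V275 at 0.08. With the replicate block between the E12 layers, 5 members were called and 5089 genes, and it changed no other call among the members. There it left Sec23b and Ero1a at 0.0524 and 0.0629. Between crypts and villi, the alternatives gave Tff3 adjusted p of 0.0336 to 0.253 and Agr2 of 0.00581 to 0.0892, with a range from 0.0411 to 0.162 for Retnlb there, and from 0.0334 to 0.145 for Retnlb in crypts against E12 endoderm. The cause of these changes was not tested. The number of arrays, and 1 E12 array per layer in the 8-array table, limit what could be detected, and signals near background limit the size of differences.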
